A study of Sus scrofa with 599 samples.

Results

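The omentum-only enhancer regions of pigs on a normal diet are stretches of chromatin marked by H3K27ac in the greater omentum and in none of the 3 other fat depots of the same nutritional group. They were taken from the table of enhancer regions of the normal-diet omentum. Regions were selected on measured values, namely the presence of called H3K27ac regions in the normal-diet tables, and a region was kept when no region of the other depots overlapped it by 1 base or more. Their presence and signal in these tables are therefore given as a description. Of 20169 autosomal regions in the omentum table, 3594 met this rule, out of 401610 autosomal regions in all 18 tables. The same rule gave 1298 regions for MAD, 3093 for RAD and 1606 for ULB. All samples came from adult female Bama pigs, a miniature breed. GOM is the greater omentum, MAD and RAD are mesenteric and retroperitoneal adipose tissue, which are visceral as well, and ULB is the upper layer of backfat, which is subcutaneous. Pigs of the normal-diet group (NC) received no high-fat feed, those of the weight-gain group (WG) received it for 22 weeks, and those of the weight-loss group (WL) received it for 22 weeks and were then restricted for 12 weeks. RNA-seq was available for 9 GOM, 12 MAD, 12 RAD and 5 ULB samples in NC, for 45, 36, 39 and 38 in WG, and for 10 of each depot in WL. Bulk tissue was used for RNA-seq and H3K27ac, so fewer cells of a type and less RNA per cell cannot be told apart. For Hi-C the paper describes lysing the adipocyte layer left after a spin, so its mix of cells may differ from theirs.

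H3K27ac is an acetyl mark on histone H3 that is placed at active enhancers and promoters. Enhancers are stretches of DNA that raise transcription of a gene, often from a distance and often in a few cell types only. The omentum is a fold of peritoneum that holds fat, is covered by mesothelium and carries clusters of immune cells, and its adipose tissue derives from a lineage that expresses transcription factors such as GATA6 and WT1.

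The depth and make-up of the data set limits on the regions. Each H3K27ac table was built by the authors from pooled libraries, of which the NC tables had 3 for GOM, 1 for MAD, 2 for RAD and 3 for ULB. Peaks of a group had been kept by the authors where at least 50% of its replicates held them, but the tables do not give presence per replicate, and no test was made on it. Expected counts on protein-coding genes summed to between 3.34 M and 22.9 M per RNA-seq library, with a median of 16.8 M. Protein-coding genes took 74.8 to 84.8% of TPM in 17 NC libraries and 91.9 to 96.8% in the other 21. The lower kind made up 7 of 9 GOM, 2 of 12 MAD, 6 of 12 RAD and 2 of 5 ULB libraries in NC, so it moved with the depot. Its part in the results below was not tested beyond the fits named beside them.

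The central 300 bases of 5 omentum-only regions are shown because each lies near a gene whose RNA was higher in GOM than in the 3 other depots, which are described below. They were read from Sscrofa11.1 and are written 5′ to 3′ on the plus strand. Capitals mark letters of 4 kinds. AGATAA and its reverse complement TTATCT are what GATA factors bind, and CAGCTG is an E-box. GGAATG and its reverse complement CATTCC are bound by TEAD factors. TTGCACAA is bound by CEBP factors.
GATA6 region, chr6:107231151-107231450: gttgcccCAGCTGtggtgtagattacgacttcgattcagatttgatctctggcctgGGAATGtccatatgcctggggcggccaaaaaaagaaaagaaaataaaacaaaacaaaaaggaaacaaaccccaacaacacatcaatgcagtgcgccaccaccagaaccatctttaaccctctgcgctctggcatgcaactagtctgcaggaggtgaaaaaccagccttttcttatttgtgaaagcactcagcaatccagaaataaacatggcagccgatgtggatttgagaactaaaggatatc
GABRA4 region, chr8:36952051-36952350: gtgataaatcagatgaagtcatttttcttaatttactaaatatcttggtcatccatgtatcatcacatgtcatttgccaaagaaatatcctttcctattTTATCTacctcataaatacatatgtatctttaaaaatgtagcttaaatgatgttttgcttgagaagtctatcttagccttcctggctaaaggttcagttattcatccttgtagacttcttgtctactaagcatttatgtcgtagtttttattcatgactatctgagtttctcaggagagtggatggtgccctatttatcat
COL22A1 region, chr4:4063251-4063550: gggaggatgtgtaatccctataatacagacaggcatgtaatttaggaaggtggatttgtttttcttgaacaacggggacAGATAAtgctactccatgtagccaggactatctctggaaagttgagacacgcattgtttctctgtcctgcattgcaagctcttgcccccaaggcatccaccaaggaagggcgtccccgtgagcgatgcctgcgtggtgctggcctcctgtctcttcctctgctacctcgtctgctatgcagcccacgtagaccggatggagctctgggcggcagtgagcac
PTPRQ region, chr5:101077051-101077350: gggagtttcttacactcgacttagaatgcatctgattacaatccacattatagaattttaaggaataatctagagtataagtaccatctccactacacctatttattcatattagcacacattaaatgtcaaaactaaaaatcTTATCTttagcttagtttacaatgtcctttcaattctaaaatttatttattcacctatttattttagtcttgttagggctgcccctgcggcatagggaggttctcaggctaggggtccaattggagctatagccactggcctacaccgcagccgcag
MEI4 region, chr1:88474951-88475250: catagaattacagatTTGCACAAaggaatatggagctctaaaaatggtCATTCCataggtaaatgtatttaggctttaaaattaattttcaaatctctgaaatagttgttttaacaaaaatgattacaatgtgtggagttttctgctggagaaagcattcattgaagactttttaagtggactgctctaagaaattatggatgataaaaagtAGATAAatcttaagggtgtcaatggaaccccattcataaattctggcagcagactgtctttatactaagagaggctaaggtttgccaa
The GATA6 window held an E-box and a TEAD match and no GATA letters, and the windows of the 4 other genes each held the GATA letters once. These 4 were picked among windows that hold these letters, so their presence there is no finding.

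Over all 3594 windows, the omentum-only regions were poorer in GC than the 16575 other regions of the normal-diet omentum, with a median of 42.3% against 45.7%. They held 1.27 CpG per 100 bases on average against 2.31. The GATA letters were in 22.8% of the omentum-only windows and in 16% of the others. Among windows of 40 to under 45% GC, the shares were 22.9% of 839 and 19.7% of 3136. The GGAATG letters, which TEAD factors bind, were in 17.2% and 15.1%, and CAGCTG in 15.7% and 16.7%. The AP-1 letters TGACTCA were in 5.90% and 5.06%, the ETS letters GAGGAAGT in 1.61% and 1.76%, and the CEBP letters TTGCGCAA or TTGCACAA in 0.946% and 0.971%. In the windows of 40 to under 45% GC, TEAD letters were in 19.9% and 17.5%, CAGCTG in 16.7% and 15.1%, AP-1 letters in 6.20% and 6.66%, ETS letters in 1.91% and 1.82%, and CEBP letters in 0.596% and 1.18%. The order of the E-box, AP-1 and ETS shares thus differed between all windows and those of like GC. Both strands were searched, and letters of different motifs can overlap. A match is a description of the sequence, and windows of the same length were compared.

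Omentum-only regions were short and weak, and both bear on the rule. Their median length was 3200 bases (quartiles 2000 and 5800) against 12200 bases for the other omentum regions. Of them, 2874 (80%) held a single called peak, against 44.6% of the others. Their median signal after subtraction of input was 246, against 1383. None of them was among the 956 super-enhancers of the omentum table, and the strongest ranked 1054. In all they covered 20.4 Mb, and the other regions 519 Mb. At the edge of the rule, 5 omentum-only regions lay under 200 bases from a region of another NC table, and 26 other regions shared less than 5% of their length, the smallest overlap being 200 bases. The median distance to the nearest region of another NC table was 27600 bases, and 2857 regions were farther from it than the distance over which peaks were stitched.

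By the position of their centre, 51.1% of omentum-only regions were intergenic, 46% intronic and 2.95% exonic, against 38.1%, 52.6% and 9.26% of the others. The median distance to the nearest start of a protein-coding gene was 97.8 kb, against 13.9 kb. A start lay within 100 kb of 1824 of them (50.8%), against 80.1% of the others. Chromosome 11 had the highest share of omentum-only regions among its omentum regions (25.4% of 582), and chromosome 12 the lowest (13.5% of 679).

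To see whether the regions were found again in pigs that the rule did not use, they were compared with the 10 WG and 4 WL tables. In the 3 WG tables of the omentum, 49.4%, 49.4% and 46% of the omentum-only regions were overlapped. In the 7 WG tables of the other depots the shares ran from 4.51% (ULB) to 11.8% (MAD). In WL they were 54.7% for GOM, 21.3% for MAD, 12.8% for RAD and 14.7% for ULB. The other omentum regions were overlapped at 75.1 to 77.0% in WG GOM, at 54.6 to 71.7% in the WG tables of other depots, and at 70.6 to 77.9% over the 4 WL tables. By the rule, each of these other regions overlaps a region of another depot in NC. Recurrence of the omentum-only regions was thus highest in the 4 tables of their own depot. The rule kept only regions absent from the other depots in NC, so this contrast between depots is a description.

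**Figure D1:**
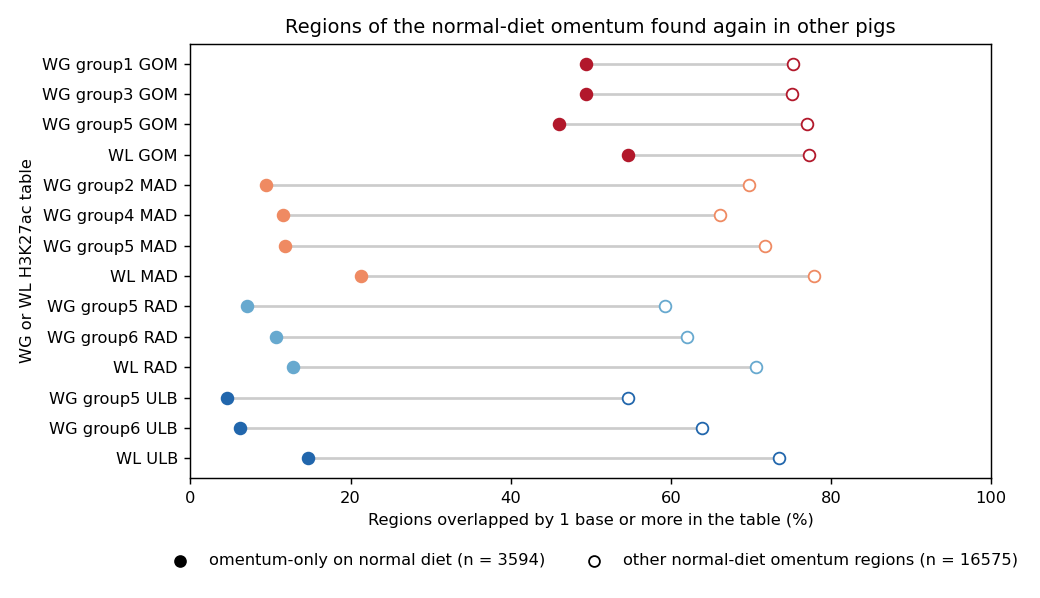
Percent of regions overlapped (x axis) in each of the 14 WG and WL H3K27ac tables (y axis), coloured by depot, for the 3594 omentum-only regions (filled circles) and the 16575 other regions of the normal-diet omentum (open circles); the bars join the 2 values of a table. The filled circles lie between 46 and 54.7% in GOM tables and between 4.51 and 21.3% elsewhere, whereas the open circles lie above 54% throughout. By the rule, the regions of the open circles each overlap a region of another depot in NC. Those of the filled circles overlap none.

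Length moved with this result. Omentum-only regions of at least the median length were overlapped at 64.8%, 64.4% and 59.5% in the WG GOM tables, and shorter ones at 33.6%, 34% and 32.1%. Among regions within the quartiles of length of the omentum-only set, the omentum-only regions were overlapped at 46.3%, 47.1% and 42.9% in WG GOM and the 4537 other omentum regions at 48.0%, 48.7% and 50.7%. In the WG tables of other depots the same 2 sets differed, with 3.84 to 10.4% against 30.5 to 48.9%. The rule had already set these 2 sets apart by overlap with other depots in NC, so this difference is a description. For comparison, MAD-only regions were overlapped at 25.3%, 16.3% and 28.7% in the WG tables of MAD and at 11.6 to 12.4% in those of GOM. RAD-only regions reached 17.2% and 31.1% in the WG tables of RAD, and ULB-only regions 16.8% and 46.6% in those of ULB. The other depots' own-depot shares in WL were 40.1% (MAD), 18.8% (RAD) and 60.8% (ULB), against 54.7% for GOM. These tables differ in the number of pooled libraries, from 1 to 11, and its part in these shares was not tested.

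Recurrence differed widely among the regions. Of the 3594, 2356 (65.6%) were overlapped in at least 1 WG GOM table and 1129 (31.4%) in all 3. In all 4 WG and WL tables of the omentum 1024 were found again, and 456 of these (12.7% of the set) were in no table of another depot. At the other end, 880 (24.5%) were in no other table at all. Recurrent regions were longer, with a median of 5600 bases for those found in all 4 and 3600, 3000, 2800 and 2200 bases for those found in 3, 2, 1 and 0. The median signal was 300 in the class found in 3 tables and 157 in the class found in none. Of all 3594, 1233 (34.3%) were overlapped in at least 1 WG or WL table of another depot, so omentum-only on the normal diet was not omentum-only throughout.

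The strongest omentum-only regions lay around ST6GAL2, which encodes a sialyltransferase. The first, chr3:48428200-48605599, was 177 kb long, held 16 peaks and ended 42.5 kb before the start of the gene. The second, chr3:48618200-48722799, held 11 peaks and lay over the start and introns of the gene. Their signals were 17492 and 10251, the 2 highest of the set. Both were overlapped in all 4 other GOM tables, the first in no table of another depot and the second in 2.

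**Figure D2:**
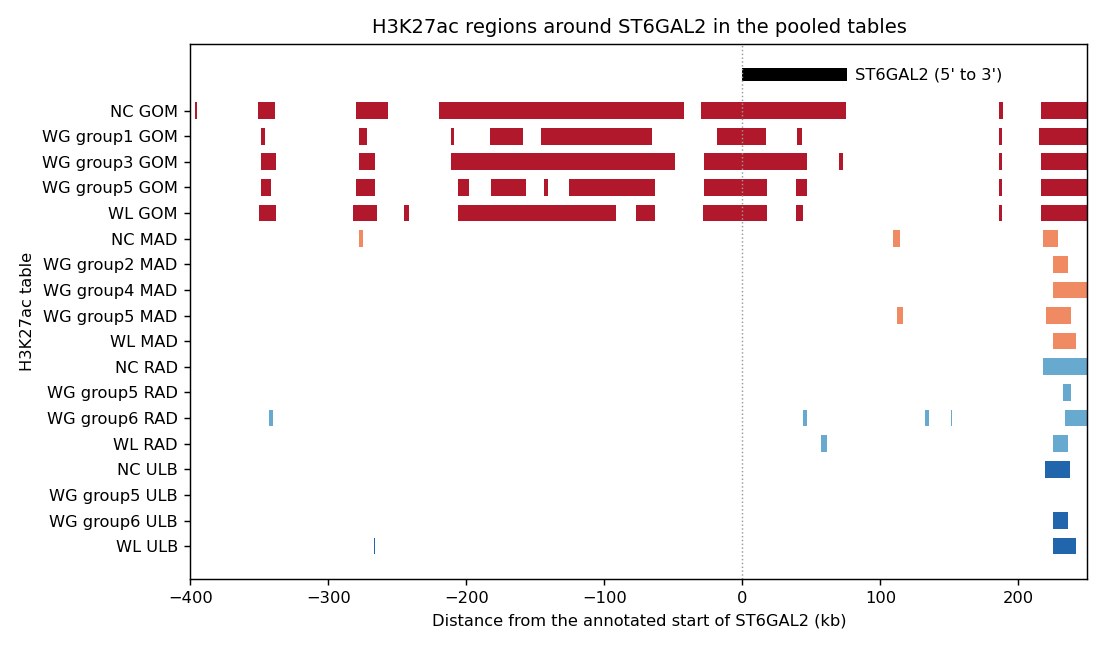
H3K27ac regions (bars) by distance in kb from the annotated start of ST6GAL2 (x axis), with 1 row for each of the 18 pooled tables (y axis), coloured by depot; the black bar is the gene. In the 5 GOM tables regions run along the gene and upstream of it, and 2 tables of other depots hold a region that meets the gene-body one.

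Other strong regions lay far from any start. The region chr1:38030200-38117399, in an intron of NKAIN2, was 87.2 kb long, and chr8:124604400-124670799, in an intron of BMPR1B, a receptor of bone morphogenetic proteins, was 66.4 kb long. The region chr16:30566800-30610399 lay in an intergenic interval, 262 kb from the start of PARP8 and 353 kb from that of ISL1. All 3 were in the 4 other GOM tables. The A-B index, a score from Hi-C that is positive in open compartment A and negative in compartment B, could be read at each of these. At the region upstream of ST6GAL2 it was -1.36 in the median of the 9 NC GOM samples (-3.15 to -0.381), against -3.84, -4.92 and -4.13 in MAD, RAD and ULB. The lowest GOM sample (-3.15) was above all MAD, RAD and ULB samples, whose highest values were -3.16, -3.81 and -3.29. Each value is that of the 20-kb bin at the centre of the region. At the second ST6GAL2 region the medians were -1.11 in GOM and -3.21, -3.16 and -3.59 in MAD, RAD and ULB. There the groups overlapped, with a lowest GOM value of -3.3 and highest values of -2.42, -2.57 and -2.91 in the others. At the chr16 region the median was -0.379 in GOM and -1.59, -1.32 and -1.35 in MAD, RAD and ULB. The groups overlapped there, with a lowest GOM value of -1.26 and highest values of -0.797, -0.808 and -0.961. Medians at the NKAIN2 region were -0.214, -1.58, -1.76 and -1.79, and at the BMPR1B region -0.113, -1.3, -1.4 and -0.634. The lowest GOM values at these, -1.19 and -1.13, were below the highest MAD values of -0.633 and -0.595. At SLC10A2 the groups overlapped, with medians of -2.37, -2.51, -2.21 and -1.90.

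The next question was how the genes near the omentum-only regions were expressed across depots. Among them, 12.7 to 16.7% were called higher in GOM than in another depot in NC and 5.24 to 8.71% lower, where all genes had 9.59 to 12.1% and 7.49 to 13.3%. Each region was linked to the protein-coding gene with the nearest start within 100 kb, which gave 1542 genes, of which 1180 could be matched to the count table. A gene was tested where its TPM exceeded 0.5 in at least 80% of the samples of either group, and called where its adjusted p was under 0.05 and its fold over 1.5 (edgeR quasi-likelihood test, Benjamini-Hochberg over all genes). A gene that passed this limit only through the group where it is high had to differ, so counts are given against all genes that passed. Against MAD in NC, 116 of 916 linked genes were called higher in GOM (12.7%) and 48 lower (5.24%), while 10.2% of all genes tested were higher and 7.49% lower. Against RAD, 136 of 901 were higher (15.1%) and 66 lower (7.33%), with 9.59% and 9.89% of all genes. Against ULB, 153 of 918 were higher (16.7%) and 80 lower (8.71%), with 12.1% and 13.3% of all genes. The median log2 fold changes of the linked genes were 0.02, 0.09 and 0.10, and those of all genes -0.02, 0.00 and 0.02. The 3 comparisons share the GOM samples. Genes linked to other omentum regions were called higher at 8.68%, 10.0% and 11.8%.

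Genes with several omentum-only regions were counted separately. Of the 189 genes with 2 or more regions, 19.3%, 27% and 24.8% of those tested were higher in GOM than in MAD, RAD and ULB, and 6.90%, 7.80% and 9.93% lower. Of the 33 with 3 or more, 22 were tested. Of these, 7, 9 and 9 were higher (31.8%, 40.9% and 40.9%) and 1, 3 and 4 lower (4.55%, 13.6% and 18.2%). All genes tested were higher at 10.2%, 9.59% and 12.1% and lower at 7.49%, 9.89% and 13.3%. The groups of 2 or more and of 3 or more regions were set after the values were seen. Genes linked to the 456 regions found in all other GOM tables and no other depot were higher at 17.4%, 18.8% and 18.4%. Those linked to the 880 regions found nowhere else were higher at 12.8%, 14.6% and 17.7%.

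**Figure D3:**
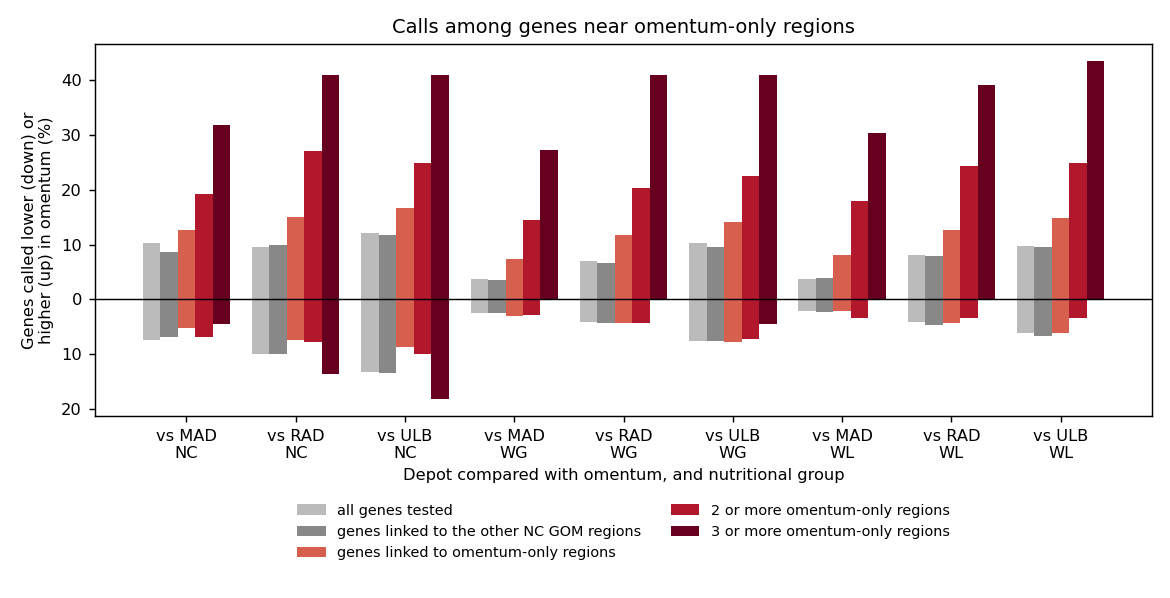
Percent of genes called higher (bars above 0) or lower (bars below 0) in GOM than in MAD, RAD and ULB (x axis), within NC, WG and WL, for all genes tested, genes linked to the other regions of the normal-diet omentum, genes linked to omentum-only regions, and those with 2 or more and 3 or more such regions. The bars of genes with 3 or more regions stand at 27.3 to 43.5% above 0, where all genes stand at 3.78 to 12.1%. Below 0 they stand at 0 to 18.2%, where all genes stand at 2.19 to 13.3%.

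Pigs of the other nutritional groups, which the rule did not use, gave the following shares. In WG, linked genes were higher at 7.44%, 11.7% and 14.2% and lower at 3.11%, 4.36% and 7.75% against MAD, RAD and ULB. All genes were higher at 3.81%, 7.08% and 10.3% and lower at 2.46%, 4.11% and 7.59%. In WL, linked genes were higher at 8.14%, 12.7% and 14.9% and lower at 2.17%, 4.33% and 6.06%. All genes were higher at 3.78%, 8.13% and 9.81% and lower at 2.19%, 4.07% and 6.16%. Whether the shares differed between NC, WG and WL was not tested. In NC, a fit on only the libraries of 88% or more protein-coding TPM left 21 linked genes higher and 1 lower against MAD, 54 and 2 against RAD, and 87 and 42 against ULB. In these fits 2.23%, 5.76% and 9.29% of linked genes and 1.32%, 2.11% and 6.25% of all genes were higher, and 0.106%, 0.213% and 4.49% of linked genes and 0.0679%, 0.495% and 7.79% of all genes lower. In these fits GOM had 2 libraries. With a term for the kind of library and all libraries, 8.41%, 14.9% and 16.3% of linked genes and 4.45%, 8.94% and 10.8% of all genes were higher.

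Of the 895 linked genes tested in all 3 NC comparisons, 66 (7.37%) were higher in GOM than in each other depot and 11 (1.23%) lower. Among all 13920 genes tested so, 574 (4.12%) were higher and 511 (3.67%) lower. The 66 included GATA6, FRAS1, ERBB4, WNT5A, MET and RSPO3. Of them, 37 (56.1%) were called higher in all 3 comparisons in WG and 39 (59.1%) in WL, against 231 (40.2%) and 236 (41.1%) of the 574. The 15 with the largest smallest log2 fold change are described next by their roles, and their NC values were what selected them. Of these, 12 were called higher in all 3 comparisons in WG and 14 in WL. GABRA4, MEI4 and TMEM132C did not pass the TPM limit in WG.

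ISL1, a LIM-homeodomain transcription factor, came first among the 15 by the smallest of its 3 log2 fold changes. Its TPM ran from 2.01 to 12.5 with a median of 7.87 in NC GOM, from 0 to 0.592 in MAD (median 0.177), from 0.0381 to 0.483 in RAD (0.113), and was 0, 0.152, 0.164, 0.167 and 0.547 in the 5 ULB samples. The lowest GOM sample was above every sample of the other depots, in NC and also in WG and WL. The log2 fold change was 5.14 against MAD (SE 0.42, adjusted p = 3.1e-08), 5.38 against RAD (SE 0.38, adjusted p = 2.7e-10) and 5.08 against ULB (SE 0.66, adjusted p = 3.3e-05). Its 2 regions, 0.600 kb and 4.40 kb long, lay 33.8 kb and 88.8 kb from its start and were found in 0 and 1 of the other GOM tables.

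KLF5, a zinc-finger transcription factor of epithelia and adipocyte precursors, ran from 17.2 to 102 TPM in NC GOM (median 31.7), from 1.03 to 37.9 in MAD, 0.436 to 4.96 in RAD and 4.40 to 7.61 in ULB. GOM overlapped only MAD, through MAD replicate 1 at 37.9 TPM, where the next highest MAD sample had 8.97. That replicate also had the highest MAD values of ST6GAL2, BMP3 and GATA6, but not of ISL1 or WNT16. The log2 fold change was 2.43 against MAD (adjusted p = 0.000874), 4.32 against RAD and 2.95 against ULB. GATA6, a zinc-finger factor of visceral mesoderm, had a region 45.9 kb from its start that was in all 4 other GOM tables and in 1 table of another depot. Its TPM ran from 14.6 to 55.8 in NC GOM (median 27), from 2.65 to 13.9 in MAD, from 1.25 to 5.77 in RAD, and was 1.04, 1.80, 1.92, 2.0 and 5.60 in ULB. No GOM sample fell among the others in NC. The log2 fold changes were 2.01, 3.01 and 3.68 (SE 0.25, 0.24 and 0.37, adjusted p at most 9.2e-06). FOXF1, a forkhead factor of visceral mesoderm, was lower in GOM than in MAD (log2 fold change -1.36, adjusted p = 0.0126) and higher than in RAD (1.11) and ULB (1.47). The FOXF1 region, 61.7 kb from the start, was in all 4 other GOM tables but also in 8 WG or WL tables of other depots. It lay 1600 bases from a region of another NC table.

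Secreted and matrix genes formed a further group. BMP3, a ligand of the transforming growth factor family, ran from 8.51 to 29.1 TPM in NC GOM (median 11.7), from 0.217 to 7.94 in MAD, from 0 to 0.557 in RAD, and was 0.0322, 0.112, 0.234, 0.315 and 0.526 in ULB. All GOM samples were above all others. The log2 fold changes were 3.49 (SE 0.58), 6.04 (SE 0.38) and 6.24 (SE 0.55), with adjusted p of 0.000215, 6e-11 and 6.3e-07. A region of 26.4 kb lay 92.1 kb from its start, in an intron of the annotated gene C8H4orf22, and was in all 4 other GOM tables. WNT16, a Wnt ligand, ran from 8.10 to 77.3 TPM in GOM (median 25.7), with medians of 5.61, 4.80 and 1.49 in MAD, RAD and ULB. Its log2 fold changes were 2.38, 2.48 and 4.15. The WNT16 region lay 94.3 kb from the start, in an intron of CPED1, and was in 1 other GOM table. COL22A1, a collagen of tissue junctions, ran from 1.49 to 2.76 TPM in GOM, and its highest value elsewhere was 0.625. FREM2, a protein of the basement membrane, ran from 1.10 to 8.59 in GOM and no sample elsewhere exceeded 1.05. The COL22A1 region was in all 4 other GOM tables and in 3 tables of other depots. The FREM2 regions were in 0 other GOM tables. FRAS1, the partner of FREM2, was among the 66 as well.

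ST6GAL2 ran from 6.75 to 21.2 TPM in NC GOM (median 12.6), from 0.203 to 2.15 in MAD, from 0.119 to 1.63 in RAD, and was 0.0634, 0.166, 0.292, 0.356 and 0.810 in ULB. The groups did not overlap in NC. The log2 fold changes were 4.00, 4.25 and 5.42 (SE 0.32, 0.33 and 0.46), with adjusted p of 2.6e-08, 1.2e-09 and 4.6e-07. GABRA4, a subunit of the GABA receptor, ran from 0.539 to 3.42 TPM in GOM and was at most 0.330 elsewhere in NC. Of its 2 regions, the stronger lay over its start and was in 2 other GOM tables and no table of another depot. UNC5C, a netrin receptor, PTPRQ, a receptor-type phosphatase, PERP, a protein of desmosomes, and ALOX15, a lipoxygenase, were also higher in GOM than in all 3 depots. Their smallest log2 fold changes were 2.23, 2.25, 2.41 and 2.19. The UNC5C region was in 0 other GOM tables, that of PERP in 1 and that of ALOX15 in 4. Those of PTPRQ were in 1, 4 and 4. MEI4, which acts in meiotic recombination, and FAM169A and TMEM132C were higher too, at median GOM levels of 2.12, 1.75 and 0.998 TPM. The MEI4 regions were in 3 other GOM tables each, those of FAM169A in 2 and 0, and those of TMEM132C in 0, 1 and 0. In a fit on the libraries of 88% or more protein-coding TPM, 10 of the 45 calls of the 15 genes were lost and 35 remained. Among the lost ones were BMP3 (log2 fold change 3.44, adjusted p = 0.116) and KLF5 (2.78, adjusted p = 0.103) against MAD, and COL22A1 against RAD (3.38, adjusted p = 0.145).

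**Figure D4:**
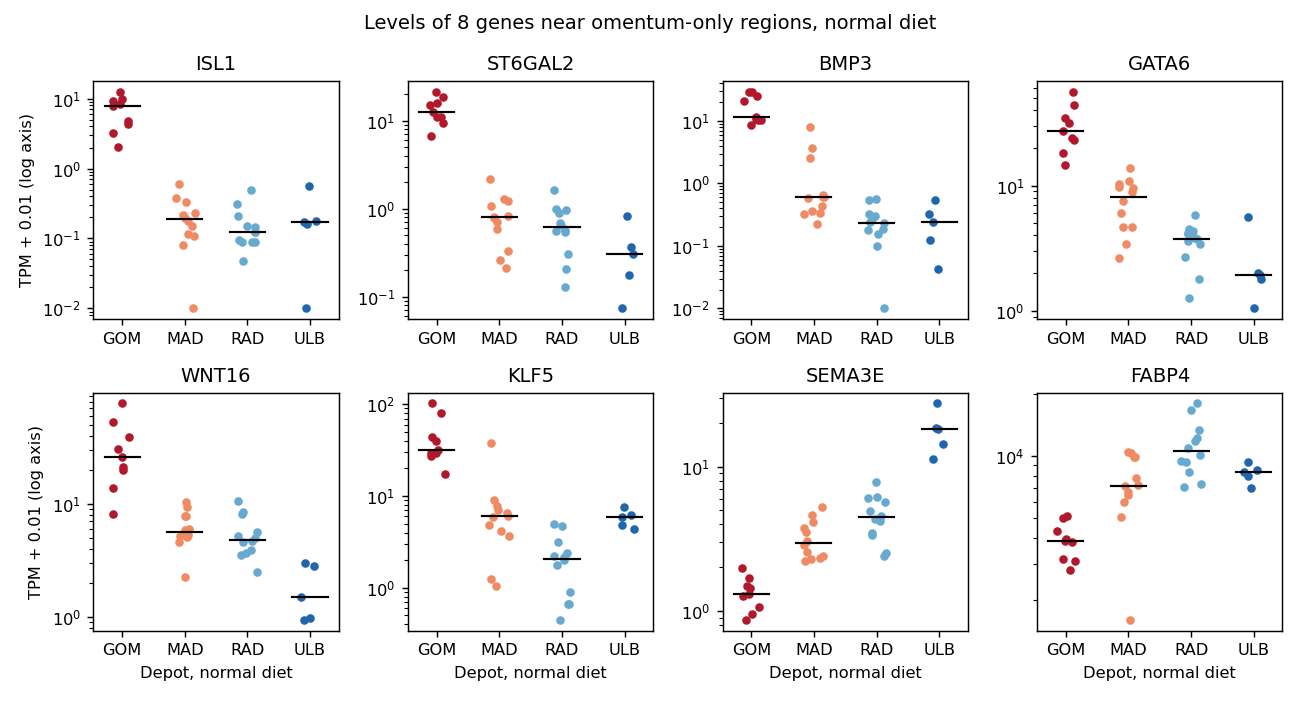
TPM plus 0.01 (y axis, log) of 8 genes linked to omentum-only regions in each NC sample of the 4 depots (x axis); points are samples and the black line is the median. For ISL1, ST6GAL2, BMP3 and GATA6 the lowest GOM sample lies above every sample of the other depots, for SEMA3E the highest lies below them, and for WNT16, KLF5 and FABP4 the groups overlap.

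Among the 11 genes lower in GOM than in all 3 depots, several act in fat and amino acid metabolism. FABP4, the adipocyte fatty acid carrier, had 2 regions in the omentum-only set and a log2 fold change of -0.83, -1.55 and -1.01 (SE 0.22, 0.20 and 0.19). ACADS and ACADL, acyl-CoA dehydrogenases, were also among the 11. ALDH2, a mitochondrial aldehyde dehydrogenase, HIBADH, of valine breakdown, and DHRS4, a dehydrogenase and reductase, had log2 fold changes of -1.04, -0.90 and -1.24 against MAD. DHRS4 came first among the 11 by its weakest fold change, and SEMA3E, a secreted semaphorin, had the lowest fold change against ULB among the 5 named. SEMA3E ran from 0.856 to 1.98 TPM in GOM and from 2.21 to 5.20 in MAD, and was 11.3, 14.3, 18.1, 18.4 and 27.3 in ULB. No NC GOM sample overlapped those of the other depots, and the log2 fold change was -3.68 against ULB (SE 0.26, adjusted p = 4.9e-08). In the libraries of 88% or more protein-coding TPM, 9 of the 15 calls of the 5 named genes were lost and 6 remained. These 5 were DHRS4, SEMA3E, ALDH2, HIBADH and PSMB1. In that fit SEMA3E was not called against MAD (-1.28, adjusted p = 0.149) or RAD (-1.82, adjusted p = 0.0601). In WL, SEMA3E was lower against RAD and ULB, with a log2 fold change of -0.85 (adjusted p = 0.112) against MAD. ALDH2, HIBADH and PSMB1, a proteasome subunit, were called against no depot in WG or WL. Of the 11, DHRS4, SEMA3E and IFRD1 (3, 27.3%) were called lower in all 3 comparisons in WG and IFRD1 alone (1, 9.09%) in WL, against 28 (5.48%) and 24 (4.70%) of the 511 genes lower in all 3 in NC. IFRD1 was named after its values were seen.

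Markers of cell types moved with these comparisons. Of 15 mesothelial markers, 8 were in the count table and 6 could be tested against MAD and ULB and 5 against RAD. BNC1, KRT8, PKHD1L1, UPK1B and WT1 were higher in GOM in all 3. Their list summed to 142 to 407 TPM in GOM and to at most 89.6 in the other NC samples. Of 17 adipocyte markers tested, 13, 15 and 10 were lower in GOM than in MAD, RAD and ULB, and none higher. Their sum ran from 7595 to 12815 TPM in GOM, from 5126 to 29364 in MAD, from 17386 to 41995 in RAD and from 15399 to 21534 in ULB. Of 12 macrophage markers, 11, 8 and 3 were higher, and of 11 lymphoid markers, 3, 4 and 5. Macrophage markers summed to 479 to 1294 TPM in GOM and to 190 to 783 elsewhere, and lymphoid ones to 87.4 to 2398 against 39.9 to 238. Of 10 endothelial markers, 0, 1 and 1 were higher. Of 6 smooth muscle markers, 5 were lower in GOM than in MAD, with a median log2 fold change of -2.82, and 3 and 1 were higher than in RAD and ULB. Of the transcription factors of subcutaneous fat, 4 of 5 tested were lower than in MAD, 8 of 8 than in RAD and 12 of 12 than in ULB. Of 13 visceral lineage factors, 6, 11 and 12 were higher, and FOXF1 and NKX2-3 were lower than in MAD. Of these lists, 3 visceral lineage factors (ISL1, GATA6 and FOXF1), 2 adipocyte genes, 1 macrophage gene (TIMD4) and 1 endothelial gene (TEK) were linked to omentum-only regions. None of the 8 mesothelial markers in the count table was linked, and links of the rest of that list were not counted. The part of cell make-up in the values of the linked genes was not tested.

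Strong regions were also found at genes with little RNA. The region chr11:71317600-71356599, the 4th strongest of the set, covered SLC10A2, the ileal bile acid transporter, and was in all 4 other GOM tables. The TPM of SLC10A2 was at most 0.348 in the 9 NC GOM samples, and at most 0.570, 1.15 and 0.276 in MAD, RAD and ULB, so that it was not tested. RYR3, a calcium channel with 2 regions, had a median of 0.189 TPM in GOM and 0.615 in MAD. DIAPH3, a formin with 2 regions found in all other GOM tables and no other depot, had medians of 0.895, 0.794, 0.732 and 0.849 TPM and was not called in NC. CPA6, a carboxypeptidase, was higher in GOM than in ULB (log2 fold change 1.12, SE 0.36, adjusted p = 0.0258) and was not called against MAD (0.50) or RAD (0.62). SASH1, a scaffold protein, had more RNA, with medians of 27.4, 20.8, 20.9 and 51.3 TPM in GOM, MAD, RAD and ULB. It was lower in GOM than in ULB (log2 fold change -0.73, adjusted p = 0.000965). BMPR1B and NKAIN2, whose introns hold strong regions, were looked up after the regions were seen. BMPR1B ran from 1.59 to 11.5 TPM in GOM, from 0 to 32.9 in MAD (median 0.432), from 0 to 0.378 in RAD and from 0.127 to 1.06 in ULB. Its log2 fold change was 5.37 against RAD, 3.34 against ULB and -0.14 (SE 0.86) against MAD. In WG and WL it was called higher than in MAD (3.05 and 4.30), where the highest MAD samples had 1.77 and 0.944 TPM. NKAIN2 was called higher than in MAD (3.51) and RAD (3.71) and not than in ULB (1.31, SE 0.67, adjusted p = 0.143), where its median was 2.83 TPM.

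Within omentum, the linked genes were next compared between nutritional groups. From NC to WG, 44 of 917 linked genes were called higher (4.80%) and 133 lower (14.5%), where 12.2% of all genes were higher and 14.5% lower. ISL1 (log2 fold change -0.78, adjusted p = 0.00704), FREM2 (-1.49), KLF5 (-1.58) and TIMD4 (-2.03) were lower in WG, and ST6GAL2 (-0.64, adjusted p = 0.0977) and GATA6 (-0.42, adjusted p = 0.165) were not called. The kind of library differed between these groups, at 7 of 9 NC and 3 of 45 WG libraries, and with a term for it 69 linked genes (7.52%) were higher and 160 (17.4%) lower, against 17.7% and 17% of all genes. From WG to WL, 39 of 913 (4.27%) were higher and 20 (2.19%) lower, with 2.55% and 2.71% of all genes. ISL1 (1.19, adjusted p = 0.00041), ST6GAL2 (1.64, adjusted p = 0.000563), FREM2 (1.62) and BMP3 (0.98) were higher in WL. With a term for the kind of library, 12 linked genes (1.31%) were higher and 18 (1.97%) lower, against 1.42% and 3.18% of all genes in the same fit. The values given here for single genes are from the fits without that term.

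Of the bins of omentum-only regions, 39.7% were in compartment A in the median NC GOM sample, against 46.7% of all bins and 76.0% of the bins of the other omentum regions. Each took the 20-kb bin that holds its centre, which gave 3586 bins. The median index of these bins in the 9 NC GOM samples ran from -0.950 to -0.310 (median -0.641), and that of the bins of other omentum regions from 1.27 to 1.89. In NC MAD the bins of omentum-only regions ran from -1.02 to -0.586, in RAD from -1.16 to -0.672, and in ULB from -1.38 to -0.702. The samples of the depots overlapped in this median. Bins were called at an adjusted p below 0.05 (limma, Benjamini-Hochberg over all bins) and a difference above 0.75. Against MAD, 280 bins (7.81%) were higher in GOM and 80 (2.23%) lower, where 4.00% and 5.12% of all 113298 bins were. After quantile normalization of the index the same counts were 475 (13.2%) and 66 (1.84%), against 5.44% and 4.26% of all bins. Against RAD, 733 (20.4%) were higher and 168 (4.68%) lower, with 9.21% and 9.39% of all bins. Against ULB, 628 (17.5%) were higher and 155 (4.32%) lower, with 9.44% and 11% of all bins. Bins of the other omentum regions were higher at 4.86%, 9.84% and 8.73%, and lower at 4.47%, 10.6% and 11.5%. For the 456 regions found in all other GOM tables and no other depot, 14.3%, 32.7% and 29.2% of bins were higher. The median differences were 0.13, 0.22 and 0.23 for the omentum-only bins and 0.31, 0.49 and 0.51 for the 456. In WG the median index of the bins was -0.518 in GOM and -0.718, -0.813 and -0.732 in MAD, RAD and ULB, and in WL -0.361, -0.580, -0.542 and -0.681.

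**Figure D5:**
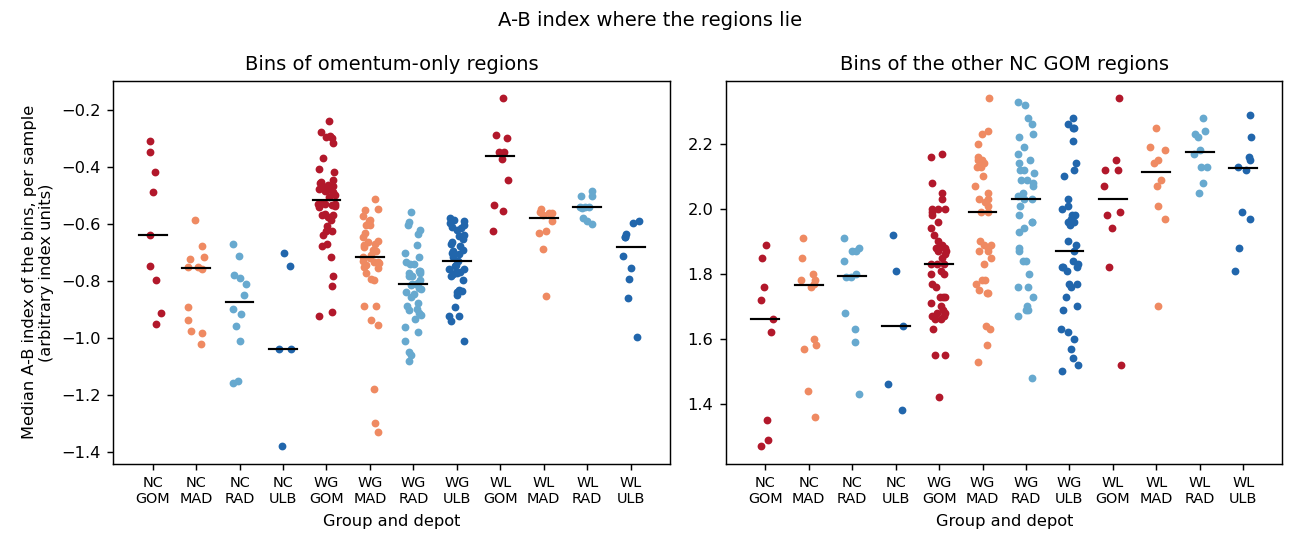
Median A-B index (y axis, arbitrary index units) of the bins that hold omentum-only regions (left) and the other regions of the normal-diet omentum (right), for each Hi-C sample (points) by group and depot (x axis), with the median over samples (black line). The left panel has medians from -1.04 to -0.361, and the right panel from 1.64 to 2.17.

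The linked regions and starts were in the same topologically associating domain in most of the 9 NC GOM Hi-C samples for 1616 of 1824 pairs (88.6%), against 93.7% of 13275 pairs of the other regions. In all 9 samples they were together for 66.5% and 77.4%. The 33.8-kb region of ISL1 was in the same domain as its start in 5 of 9 samples, and its 88.8-kb region in 9. The GATA6 region was with its start in 4 of 9, and both BMP3 regions were in 9.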

How the data were processed

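RNA-seq, Hi-C and H3K27ac ChIP-seq had been made from pig adipose tissue. The authors pooled the H3K27ac libraries of a group, called peaks with SICER after alignment with BWA 0.7.15 and SAMtools 1.3.1, kept peaks seen in at least 50% of replicates, and stitched peaks within 12500 bases with ROSE, leaving out peaks within 2000 bases of gene starts. The deposited tables give H3K27ac and input signal for each region. The authors quantified RNA-seq with kallisto 0.43.0, and deposited expected counts and TPM for each gene. The deposited A-B index is a score for each 20-kb Hi-C bin. The count, TPM and A-B tables each held 9 columns that matched no sample, which were not used.

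Members, gene lists and tests were chosen with earlier results of these data known. Regions were compared as the files give their coordinates, at an overlap of 1 base. Genes came from RefSeq annotation of Sscrofa11.1, of which 13061 of 18725 autosomal protein-coding genes matched the count table by symbol. A region was linked to the nearest start within 100 kb. Expected counts were rounded and tested with edgeR 4.0.16 (TMM, quasi-likelihood, R 4.3.3), without covariates, within the 2 groups compared, for genes above 0.5 TPM in at least 80% of samples of a group. The A-B index was tested with limma 3.58.1. P-values were adjusted by the Benjamini-Hochberg method. Genes were called where the adjusted p was under 0.05 and the fold over 1.5, and bins where the index differed by over 0.75. The authors took the 4 depots from each carcass, but the labels do not say whether same-numbered samples came from 1 animal, and p-values cover the spread between samples only. Tested on simulated counts for NC GOM against ULB over 14316 genes, the fit recovered 52 of 100 genes changed 2-fold and 87 of 100 changed 4-fold, with 2 false calls. Alternatives were DESeq2 1.42.0, no TPM limit, a replicate block, a term for the kind of library, other link distances, quantile normalization, and leaving out each NC ULB sample. Fits on libraries of 88% or more protein-coding TPM, and the library term in the comparisons of nutritional groups, were chosen after seeing the data. Named regions were the 8 of highest signal and the 8 highest found in all other GOM tables and no other depot. Named genes were the 15 higher in all 3 NC comparisons with the largest smallest fold change, the 5 lower likewise, linked genes in a fixed list, and genes linked to named regions.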

Additional observations from a re-analysis of the deposited data

Results flagged for a closer look

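Single samples stood apart from their group in 5 of 99 groups examined, a check that chance alone sets off in about 1 in 20 groups. MEI4 had a TPM of 0 in NC GOM replicate 8, where the next lowest of 9 samples had 1.18. PTPRQ had a TPM of 2.68 in NC ULB replicate 5, and the next highest of the 5 samples had 1.04. ALDH2 had a TPM of 211 in NC ULB replicate 12, against 111 in the next of 5. SLC10A2, which lies under the strong omentum-only region of chromosome 11, reached a TPM of 0.792 in WL GOM replicate 1, against 0.314 in the next of 10. The median A-B index of the bins of omentum-only regions was -0.854 in WL MAD replicate 10, and the next lowest of 10 samples had -0.688.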

How the results depend on the processing

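The number of omentum-only regions followed its definition, at 5830 when only a cover of 50% counted as shared, 382 among regions at or above the median signal, and 0 among super-enhancers. With at least 50% of the region covered, the shares found again were 38.5%, 40.3% and 34.6% in the WG GOM tables and 45.9% in WL GOM. At an overlap of 1 base, the shares for regions of at least median length were 64.8%, 64.4%, 59.5% and 71.3%. For those of at least median signal they were 67.4%, 64.8%, 59.9% and 74.0%, also at 1 base. With at least 50% covered, these 2 sets had 44.5%, 47.4%, 38.1% and 54.8%, and 48.6%, 48.7%, 39.8% and 58.8%. With only the libraries of 88% or more protein-coding TPM, 22, 56 and 129 linked genes were called against MAD, RAD and ULB in NC, where all libraries gave 164, 202 and 233. A term for the kind of library gave 99 against MAD in NC and 30 between WG and WL, where 59 were called without it. Without the TPM limit, 154, 233 and 298 were called in WG against MAD, RAD and ULB, and with starts within 50 kb, 130 against ULB in WG and 63 against MAD in WL. The replicate block left 112 linked genes against ULB in NC, 17 of 177 between NC and WG, and 11 of 59 between WG and WL. The labels do not say that a number marks a pig, and in no comparison did every same-numbered pair correlate above 0.1. In WG most did, with median correlations of 0.641, 0.565 and 0.592 between GOM and MAD, RAD and ULB (lowest -0.31, -0.0407 and -0.338), and in NC the medians were 0.142, 0.217 and 0.137, so the labels and these values do not settle whether numbers pair the depots. The block gave 102, 148 and 193 linked genes in WG where 95, 144 and 198 were called without it. Between nutritional groups the numbers belong to different pigs. Quantile normalization called 541 bins against MAD in place of 360. Leaving out each NC ULB sample gave 177 to 257 linked genes and 639 to 758 bins. TIMD4 against ULB was lost without replicate 2, 5, 7 or 9, with adjusted p from 0.0538 to 0.0888, and CPA6 without replicate 2 or 7. The cause of these differences was not tested. Of the results that answer a comparison, 83 kept their side or stayed within 1.5 times and 29 moved. Of values for named genes, 528 kept their call, 49 lost it, 3 gained one and 0 reversed. Pooled H3K27ac tables limit what presence of a region can show.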
